A study of Homo sapiens with 6 samples.

Results

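The genes followed here encode the enzymes that build, lengthen and desaturate fatty acids: the elongases ELOVL1, ELOVL2, ELOVL4, ELOVL5, ELOVL6 and ELOVL7, the desaturases FADS1, FADS2 and SCD, and the fatty acid synthase FASN. They are 10 of the 21359 genes that the array annotation names, and every probe set whose annotation names a member was taken, 24 of the 54675 on the array. ELOVL7 was chosen by its lower signal in methotrexate (MTX)-resistant cells on these same arrays, so its values are a description with no test. Expression was measured on 3 Affymetrix arrays of K562 cells resistant to MTX at the concentration labelled 10e-5M (taken literally, this is an order of magnitude above the dose in the methods, and which is meant is not settled), and on 3 arrays of parental K562 cells, which are sensitive to the drug. K562 is an established human erythroblastic leukemia line. The resistant cells were selected in the laboratory in rising steps of MTX and grown with dialyzed serum in a medium that lacks glycine, hypoxanthine and thymidine. The routine medium of the lines was Ham's F12 with fetal bovine serum, so effects of resistance cannot be told apart from those of selection or of the medium. Since no source states whether arrays of 1 group came from separate cultures, p-values measure only the spread between these samples, which may be technical.

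FASN assembles palmitate from acetyl and malonyl units in the cytosol. In the endoplasmic reticulum, an elongase condenses malonyl-CoA with an acyl chain, and a reductase, a dehydratase and a further reductase complete the cycle that lengthens the chain. Desaturases draw electrons from cytochrome b5 to place double bonds: SCD makes monounsaturated chains such as oleate, whereas FADS2 and FADS1 act in turn on dietary polyunsaturated chains and lead to arachidonic acid. Many of these genes are known targets of the sterol-regulated factors SREBF1 and SREBF2. The products go into membrane phospholipids, ceramides and stored lipids.

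Levels are signals divided by the median of the array and are called array medians. A value near or below 1 lies in the range of background. Erythroid markers of K562 were expressed in both groups. The 10 distinct probe sets measured summed to between 1950 and 2263 array medians in resistant cells and between 2544 and 2605 in parental cells. Most of this came from HBG and HBZ. Among them 1, for HBE1, was called lower, with means of 61.6 in resistant and 601 in parental cells (limma adjusted p = 0.00562). Differences that were not called included -0.82 for GATA1, -0.49 for TAL1 and 0.56 for KLF1 (log2). Parental array 1 stood apart from the other parental arrays, with a rank correlation of 0.899 and 0.889 with parental arrays 2 and 3, which correlated at 0.969 with each other. It also had the epithelial genes CDH1 and EPCAM at 21.8 and 9.53 array medians, against 2.01 or less and 1.19 or less in each of the other 5 arrays. Over the 12 epithelial markers measured, the summed level was 225 to 310 array medians in resistant cells and 273 to 649 in parental cells, the top value being that of parental 1. Most of this sum was KRT18, KRT8 and KRT19, with 352, 166 and 83.7 in parental 1 and lower values, well above background, on the other 5 arrays. In parental 1, 10 of the 12 markers were above the mean of parental 2 and 3, while KRT7 and CLDN4 were not. In resistant array 3 the ratio of the 3′ to the 5′ control probe set of actin, a sign of RNA integrity, was 2.01, against 1.19 and 1.30 in the other resistant arrays and 1.25 to 1.5 in parental arrays. The part of these differences in the results below was not tested except where values without these arrays are given.

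The 2 loci on which the results turn were ELOVL7, on chromosome 5, and FADS1, on chromosome 11. In the RefSeq annotation of build GRCh38.p14, ELOVL7 spans positions 60751791 to 60844269 and FADS1 spans 61799627 to 61817003. FADS2 begins at 61816203 and is transcribed in the other direction, so that the spans of FADS1 and FADS2 share 801 bases at their starts. The 250 bases before each start, from RefSeq, are shown 5′ to 3′ on the strand of the gene, because ELOVL7 and FADS1 were the members with the largest differences. Capitals mark the GC box GGGCGG, the CCAAT box, the E box CACGTG, the sterol regulatory element TCACNCCAC and the cAMP response element TGACGTCA, wherever these letters were found on either strand.
ELOVL7 (chr5:60844270-60844519, minus strand): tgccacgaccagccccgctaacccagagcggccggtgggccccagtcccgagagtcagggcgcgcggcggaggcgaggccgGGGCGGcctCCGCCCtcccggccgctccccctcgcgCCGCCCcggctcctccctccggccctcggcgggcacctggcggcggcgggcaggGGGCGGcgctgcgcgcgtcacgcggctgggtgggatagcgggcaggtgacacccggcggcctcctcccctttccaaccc
FADS1 (chr11:61817004-61817253, minus strand): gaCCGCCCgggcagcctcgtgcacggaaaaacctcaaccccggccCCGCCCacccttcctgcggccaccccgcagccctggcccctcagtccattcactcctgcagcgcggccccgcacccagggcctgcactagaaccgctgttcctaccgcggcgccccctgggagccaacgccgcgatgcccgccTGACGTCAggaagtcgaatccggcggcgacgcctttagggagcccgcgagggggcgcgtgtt
The ELOVL7 window held 4 matches to the GC box and none of the other motifs. The FADS1 window held 2 GC boxes and 1 cAMP response element, a motif found in 1.65% of the 35116 windows of the same length, while 42.6% held a GC box, 32.0% a CCAAT box and 6.34% an E box. Neither window held the letters of the sterol regulatory element, which were in 0.883% of all windows. Both were rich in CpG, with 35 CpG in the ELOVL7 window and 29 in the FADS1 window, against a median of 11 over all windows. Of the other members, 7 had a promoter in the table, FADS2 with windows at different starts, and their windows held between 10 and 45 CpG. The cAMP response element was also found before ELOVL5. No window of a member held the sterol regulatory element, which says only that those letters are not in these bases.

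Of the 24 member probe sets, 20 passed the filter on low values, a mean of at least 1 array median over the 6 arrays. They were fitted together with all 26692 probe sets that passed, with limma and Benjamini-Hochberg adjustment. Calls required both an adjusted p below 0.05 and a difference of 2-fold or more. Among the 19 tested probe sets of the 9 members other than ELOVL7, 2 were called lower and 0 higher in resistant cells, both of them of FADS1. Over all tested probe sets, 2.33% were called, 1.14% lower and 1.2% higher. Resistant and parental arrays were fully separated by 4 of the 19, 3 of FADS1 and 1 of ELOVL5, a share below the 27.2% of all tested probe sets whose arrays did not overlap.

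**Figure D1:**
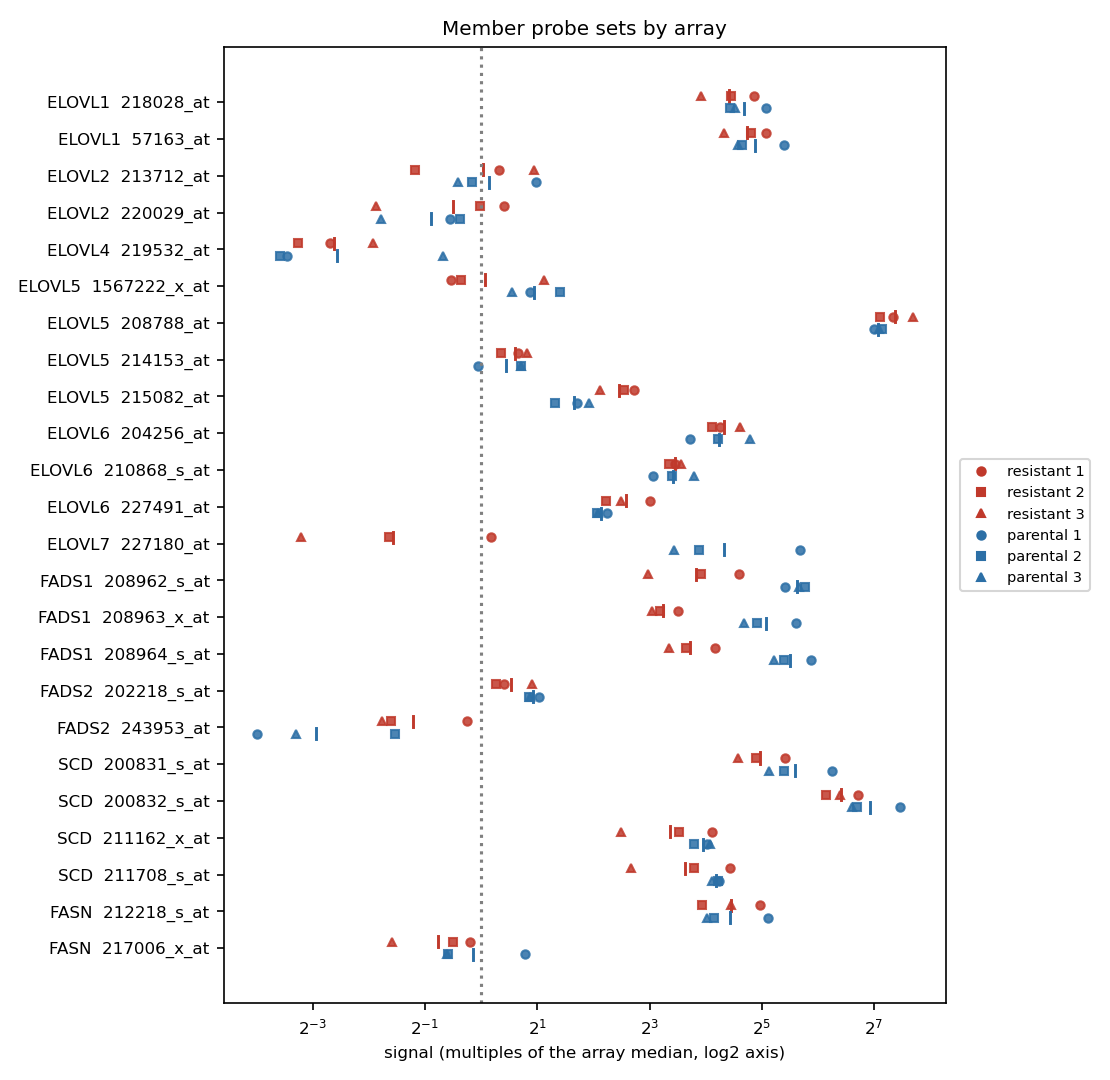
Signal of each member probe set on each array in array medians (log2 axis), with resistant arrays in red above parental arrays in blue, vertical marks at the group means of the log2 levels, and a dotted line at the array median. The 3 resistant arrays lie left of the 3 parental arrays for ELOVL7 and for each FADS1 probe set, and right of them for ELOVL5 probe set 215082_at.

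ELOVL7 lengthens long saturated chains. Its single probe set, 227180_at, stood at 1.13, 0.32 and 0.108 array medians in resistant arrays 1, 2 and 3, and at 51.3, 14.7 and 10.8 in parental arrays 1, 2 and 3. The resistant values were at or below background and all parental values lay far above them, with parental 1 more than 3 times as high as the other parental arrays. Means were 0.519 ± 0.539 in resistant cells and 25.6 ± 22.3 in parental cells (SD, n = 3). In bulk RNA, fewer cells that express a gene and less RNA per cell cannot be told apart. The mean log2 difference of resistant minus parental cells was -5.89, a ratio of 0.0168. Since background sets the lower level, the size of the ratio is uncertain: with 1 array median added to each value the difference was -3.87. Without parental 1 it was -5.22, and without parental 1 and resistant 3, -4.39. The parental array with the most ELOVL7 was also the one with the highest sum of the epithelial markers, most of it from keratins. The part of these markers in the difference was not tested.

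The genes whose pattern over the 6 arrays was most like that of ELOVL7 were ARHGAP25, ANKRD44, AIF1, MLLT11 and TRBC1, with Pearson correlations of log2 levels of 0.99, 0.99, 0.989, 0.989 and 0.987. They were taken from the 436 genes whose levels spanned at least 4.45 on the log2 scale. The points share their arrays and their groups, and any gene that fell strongly and was highest in parental 1 would score high, so the correlations are a description. AIF1, a calcium-binding protein of macrophages, had 1.00, 0.608 and 0.265 array medians in resistant arrays and 15.02, 11.6 and 7.78 in parental arrays. TRBC1, the constant segment of the T cell receptor beta chain, had 2.00, 1.62 and 0.726 in resistant arrays and 78.5, 26.2 and 17.3 in parental arrays. As with ELOVL7, resistant 1 was the highest of the resistant arrays and parental 1 the highest of the parental arrays for both. Each of these is common: of all 26692 tested probe sets, resistant 1 was the highest resistant array for 14110 and parental 1 the highest parental array for 11713. Markers of blood cells were measured beside these genes, and none was called. Over all genes 2.77% were called by limma, so a count of 0 among so few tested markers is no result about them. The 10 lymphoid markers measured, of which 2 passed the filter and 0 were called by limma, summed to 5.59 to 5.89 array medians in resistant cells and 40.3 to 54.1 in parental cells. Nearly all of the parental sum was CD3D, with 0.919, 2.14 and 0.0784 in resistant arrays and 50.3, 31.9 and 35.2 in parental arrays. Its log2 difference was -6.16, just short of a call (limma adjusted p = 0.0514). CD3E, CD3G, CD2 and LCK lay below 1.4 on all 6 arrays. The 12 granulocyte and monocyte markers, of which 4 passed the filter and 0 were called by limma, summed to 16.9 to 29.4 in resistant cells and 53.2 to 74.4 in parental cells, with parental 1 the lowest of the parental arrays. Most of this sum was LYZ, with 21.3, 19.4 and 10.1 in resistant arrays and 42.1, 60.9 and 60.5 in parental arrays (limma adjusted p = 0.0659), while CSF1R and AZU1 had positive log2 differences of 0.74 and 0.71, and CD14 lay below 1 on all 6 arrays. Their part in the ELOVL7 difference was not tested.

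The genes next to ELOVL7 were followed in the same fit. Of the 5 genes with a tested probe set on each side, 0 of 10 were called by limma and 0 by the methods' t-test. The test named for the methods was run here with another filter than in the paper, so its counts are not the paper's own. Over all 11810 genes 2.77% were called by limma and 63 genes by the methods' t-test. A count of 0 by either is therefore no result about the neighbours. An unadjusted p under 0.05 was found for 2 of them, against 2362 of all 11810 genes. DEPDC1B and ERCC8, the nearest on either side, had log2 differences of -0.54 and 0.23. The 2 with a low unadjusted p lay in opposite directions. PLK2, a polo-like kinase, had 0.78, 0.344 and 0.0392 array medians in resistant arrays and 7.50, 2.21 and 2.91 in parental arrays (log2 difference -4.05, SE 1.10, limma adjusted p = 0.125), and these did not overlap. NDUFAF2, an assembly factor of mitochondrial complex I, had 83.99, 69.5 and 92.5 in resistant arrays and 44.9, 52.7 and 48.3 in parental arrays (log2 difference 0.75, SE 0.215, limma adjusted p = 0.142).

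The other elongases that were well above background were ELOVL1, ELOVL5 and ELOVL6. ELOVL5 lengthens polyunsaturated chains of the kind that the FADS enzymes make. Its probe set 208788_at stood at 161, 138 and 206 array medians in resistant arrays and at 127, 142 and 136 in parental arrays. The groups overlapped, and the log2 difference of 0.30 was not called (SE 0.231, 95% confidence interval -0.25 to 0.85, limma adjusted p = 0.528). Probe set 215082_at, also of ELOVL5, had 6.59, 5.86 and 4.33 array medians in resistant arrays and 3.28, 2.49 and 3.81 in parental arrays. These groups did not overlap, but the difference of 0.81 (SE 0.272) did not pass either (limma adjusted p = 0.186). The remaining ELOVL5 probe sets lay between 0.691 and 2.65 array medians, close to background, and pointed in opposite directions (log2 differences 0.16 for 214153_at and -0.87 for 1567222_x_at).

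ELOVL6 converts palmitate to stearate and thereby supplies the substrate of SCD. With probe set 204256_at it had 18.99, 17.2 and 24.4 array medians in resistant arrays and 13.2, 18.7 and 27.6 in parental arrays. The parental arrays spanned the resistant ones, and the log2 difference was 0.08 (95% confidence interval -0.70 to 0.86, limma adjusted p = 0.922). Its other probe sets gave 0.04 and 0.44, with adjusted p of 0.952 and 0.415 in the same limma fit. ELOVL1, which makes very long saturated and monounsaturated chains for sphingolipids, had 33.9, 28.0 and 20.0 array medians in resistant arrays and 42.3, 25.1 and 23.8 in parental arrays by probe set 57163_at. The groups overlapped (log2 difference -0.14, 95% confidence interval -0.92 to 0.65, limma adjusted p = 0.857), and the other ELOVL1 probe set gave -0.26. Both ELOVL1 probe sets are annotated to the microRNA gene MIR6734 as well, which lies within the ELOVL1 span. For both genes, leaving out 1 array was enough to turn the sign of some probe sets, so no direction is given.

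ELOVL2 and ELOVL4 were near or below the array median. ELOVL2, which acts on long polyunsaturated chains, had 1.24, 0.44 and 1.93 array medians in resistant arrays and 1.98, 0.893 and 0.756 in parental arrays, and its other probe set did not pass the filter. ELOVL4, known for the ultra-long chains of retina and skin, lay between 0.104 and 0.265 array medians in resistant arrays and between 0.084 and 0.622 in parental arrays, and was not tested. The log2 difference of ELOVL2 by its tested probe set was -0.11 (95% confidence interval -1.61 to 1.38, limma adjusted p = 0.943). At these levels background leaves little room to see a fall. ELOVL3, the elongase outside the members, also stayed below the array median on all 6 arrays.

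FADS1 was lower in resistant cells by each of its 3 probe sets. It encodes the desaturase that acts last on the way to arachidonic acid. Probe set 208963_x_at stood at 11.3, 9.08 and 8.26 array medians in resistant arrays and at 48.9, 30.1 and 25.8 in parental arrays, a mean of 9.55 ± 1.58 in resistant cells and 34.9 ± 12.3 in parental cells (SD, n = 3). The log2 difference was -1.83 (SE 0.304, 95% confidence interval -2.56 to -1.10), and it passed (limma adjusted p = 0.0374). The highest resistant value was less than the lowest parental value by a wide margin, and the same held for the other probe sets. With 208964_s_at, FADS1 had 17.9, 12.6 and 10.2 array medians in resistant arrays and 58.5, 41.9 and 37.3 in parental arrays (log2 difference -1.77, SE 0.303, limma adjusted p = 0.0407). Probe set 208962_s_at had 24.0, 15.1 and 7.87 in resistant arrays and 42.9, 54.7 and 50.9 in parental arrays. Its difference of -1.80 was of the same size, but its resistant arrays were more widely spread and it was not called (SE 0.416, limma adjusted p = 0.0905). Both FADS1 calls were lost with no level filter (limma adjusted p = 0.154 and 0.163), with the methods' t-test, and without parental 1 and resistant 3 (limma adjusted p = 0.0514 and 0.0683). Where a gene is given 1 value, FADS1 is represented by the uncalled probe set 208962_s_at. By that rule 0 of the 8 members tested besides ELOVL7 were called by limma, against 2.77% of all 11810 genes. Of the 8, 1 had an unadjusted p under 0.05, against 2362 of the 11810. The methods' t-test called 0 of the 8 and 63 of the 11810.

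The size of the FADS1 difference was steadier than its call. Leaving out 1 array at a time, it lay between -2.02 and -1.56 for 208963_x_at, between -1.99 and -1.58 for 208964_s_at and between -2.18 and -1.37 for 208962_s_at. The call of 208963_x_at was kept without parental 1 (limma adjusted p = 0.0305) and lost without each of the other 5 arrays (up to 0.144), and that of 208964_s_at was lost without each of the 6 arrays (limma adjusted p from 0.0513 to 0.152). Resistant 3, the array with the high actin ratio, had the lowest FADS1 value by all 3 probe sets. Without it the differences were -1.73 for 208963_x_at, -1.59 for 208964_s_at and -1.37 for 208962_s_at. The probe sets also name the microRNA gene MIR1908, which lies within the span of FADS1, from 61815161 to 61815240 on chromosome 11, and the annotation gives them to both genes. They read the same transcripts and are not independent measurements, and 208963_x_at is of a class that can match other transcripts.

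**Figure D2:**
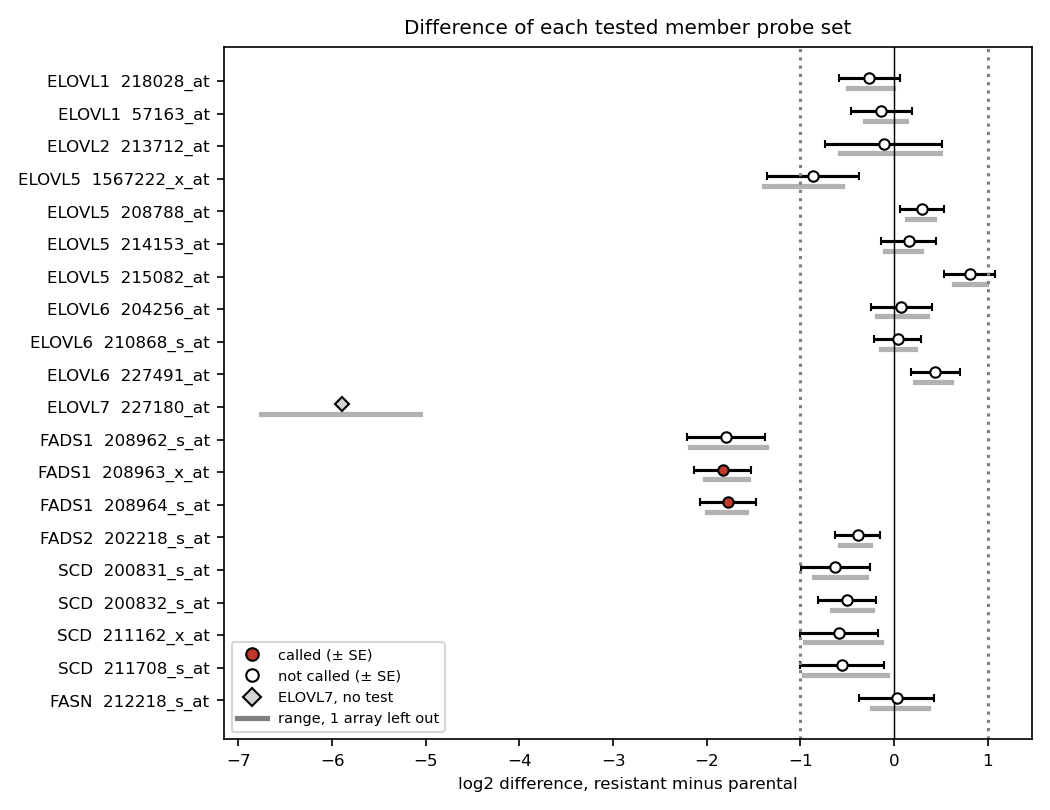
Log2 difference of resistant minus parental cells for the 20 tested member probe sets (points, ± SE, 3 arrays per group), with calls filled in red, ELOVL7 as a grey diamond without a test, grey bars for the range when 1 array at a time is left out, and dotted lines at the fold of 2. The 3 FADS1 probe sets lie together between -1.83 and -1.77, and the remaining tested members except ELOVL7 lie within the dotted lines.

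FADS2, which carries out the initial desaturation of linoleic acid and is the neighbour of FADS1, was close to background in both groups. Probe set 202218_s_at had 1.33, 1.21 and 1.88 array medians in resistant arrays and 2.06, 1.82 and 1.83 in parental arrays. The log2 difference was -0.39 (95% confidence interval -0.98 to 0.19, limma adjusted p = 0.439). Its other probe set lay below 1 array median on all 6 arrays. Whether FADS1 and FADS2 differed in their response was not tested, and the low signal of FADS2 leaves little room to see a fall.

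Around the FADS genes, 0 of the 10 nearest tested genes were called by limma and 0 by the methods' t-test. Over all 11810 genes 2.77% were called by limma and 63 genes by the methods' t-test, so a count of 0 by either is no result about these neighbours. An unadjusted p under 0.05 was found for 1 of them, against 2362 of all 11810 genes. That gene was MYRF, the myelin regulatory factor, with 7.73, 7.46 and 7.48 array medians in resistant arrays and 26.7, 16.95 and 11.99 in parental arrays (log2 difference -1.22, SE 0.32, limma adjusted p = 0.116). TMEM258 and FEN1, which lie between MYRF and FADS1, had log2 differences of 0.03 and 0.07. FADS3, the neighbour on the side of FADS2 and a desaturase of sphingoid bases, had 30.1, 23.6 and 11.6 array medians in resistant arrays and 24.8, 26.8 and 24.1 in parental arrays, a difference of -0.32 that was not called (limma adjusted p = 0.684).

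**Figure D3:**
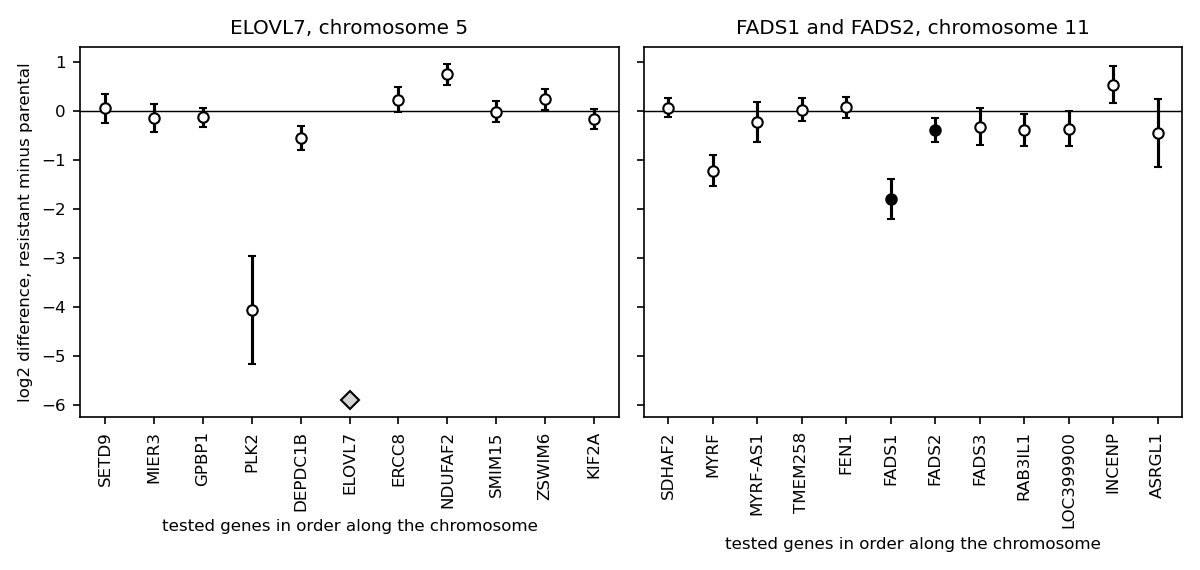
Log2 difference of resistant minus parental cells (± SE, 3 arrays per group) for tested genes in order along the chromosome around ELOVL7 (left, grey diamond without a test) and around FADS1 and FADS2 (right, filled points). Apart from PLK2 at -4.05 and MYRF at -1.22, the neighbours lie between -0.54 and 0.75.

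SCD, the desaturase that makes oleate from stearate, had a negative log2 difference by all 4 of its probe sets, from -0.63 to -0.50, and none was called (limma adjusted p from 0.417 to 0.544). Probe set 200832_s_at stood at 105, 70.4 and 84.3 array medians in resistant arrays and at 176, 104 and 96.9 in parental arrays. Resistant 1 lay between parental 2 and parental 1, so the groups overlapped. The 95% confidence interval of this difference ran from -1.24 to 0.24. Without parental 1 and resistant 3 the 4 differences were smaller, between -0.22 and -0.05. No SCD probe set had an unadjusted p under 0.05. The 4 that did, among the 19 tested of members other than ELOVL7, were those of FADS1 and ELOVL5 probe set 215082_at. By 1 probe set per gene, 2362 of all 11810 genes had such a p.

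FASN had 31.4, 15.3 and 21.9 array medians in resistant arrays and 34.4, 17.6 and 16.4 in parental arrays by probe set 212218_s_at. The spread within each group was larger than the difference between them (log2 difference 0.03, 95% confidence interval -0.93 to 0.98, limma adjusted p = 0.98). Its other probe set averaged below 1 array median and was not tested. The interval leaves room for a change of almost 2-fold in either direction, so these arrays do not show that FASN stayed level.

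Genes that work with the members were taken from lists made by function. Of 110 tested genes in the 11 lists, ELOVL7 aside, 1 was called higher and 0 lower, where 1.3% of all 11810 genes were called higher and 1.47% lower. The methods' t-test called 0 of the 110 and 63 of the 11810. An unadjusted p under 0.05 was found for 26 of the 110, against 2362 of the 11810. The median log2 difference of the listed genes was 0.01, and that of all genes was 0.02. The called gene was FABP5, a cytosolic binding protein that carries fatty acids. It had 72.4, 54.3 and 65.9 array medians in resistant arrays and 8.77, 9.70 and 15.9 in parental arrays, a 5.77-fold rise (log2 difference 2.53, SE 0.294, limma adjusted p = 0.0113). All resistant values were more than 3 times the highest parental value. The call was lost without resistant 1, resistant 2 or parental 2 (limma adjusted p = 0.0537, 0.0521 and 0.0563), while the difference stayed between 2.36 and 2.79. PLIN2, which coats lipid droplets, was in the same list of uptake and storage, with 27.6, 27.4 and 26.4 array medians in resistant arrays and 16.1, 12.9 and 13.1 in parental arrays (log2 difference 0.96, limma adjusted p = 0.0744). This list had 9 tested genes, a median of 0.48, 1 gene called higher and 0 lower.

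Among the other enzymes of the elongation cycle, 4 genes were tested and 0 were called, with 1 at an unadjusted p under 0.05. Over all genes 2.77% were called and 2362 of 11810 had an unadjusted p under 0.05. A count of 0 in so short a list is therefore no result about it. HSD17B12, the ketoacyl-CoA reductase of the cycle, had 77.8, 69.2 and 94.5 array medians in resistant arrays and 2.25, 31.96 and 35.8 in parental arrays. Parental 1 was far below the other parental arrays, and the log2 difference of 2.54 (limma adjusted p = 0.257) became 1.24 without it (limma adjusted p = 0.0521). TECR, which completes the cycle, had 71.2, 56.2 and 54.8 array medians in resistant arrays and 51.4, 37.8 and 39.6 in parental arrays, a difference of 0.50 (limma adjusted p = 0.314). In the list of desaturases, with 7 genes tested, 0 called and 1 at an unadjusted p under 0.05, the median log2 difference was -0.39. DEGS2, a ceramide desaturase, was at 1.44, 0.992 and 0.128 array medians in resistant arrays and 1.03, 3.86 and 4.15 in parental arrays, with the groups overlapping (limma adjusted p = 0.31). The 7 genes for cytochrome b5 and its reductases had a median of -0.12, and none was called by limma or had an unadjusted p under 0.05.

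Genes for the supply of acetyl-CoA and reducing power differed in both directions without passing. In this list of 15 tested genes, 0 were called and 6 had an unadjusted p under 0.05. Over all genes 2.77% were called and 2362 of 11810 had such a p. ACLY, which makes cytosolic acetyl-CoA from citrate, had 50.7, 44.0 and 42.5 array medians in resistant arrays and 99.6, 90.7 and 70.9 in parental arrays (log2 difference -0.92, SE 0.227, limma adjusted p = 0.103). ME1, the cytosolic malic enzyme that yields NADPH, had 59.4, 44.9 and 59.3 in resistant arrays and 8.24, 25.3 and 23.3 in parental arrays (log2 difference 1.68, SE 0.458, limma adjusted p = 0.126). For neither did the groups overlap. ME3, with the smallest adjusted p of the list, lay near background and had a log2 difference of -1.07 (limma adjusted p = 0.101). ACACA, the carboxylase that makes malonyl-CoA, had 27.9, 23.8 and 39.5 in resistant arrays and 36.1, 18.3 and 18.1 in parental arrays, and these overlapped (limma adjusted p = 0.615).

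In the lists further from the members, no gene was called by limma, where 2.77% of all genes were called. An unadjusted p under 0.05 was found for 2362 of all 11810 genes, the share to set beside the counts below. Of 10 acyl-CoA synthetases 5 had an unadjusted p under 0.05, among them ACSM3, a mitochondrial medium-chain enzyme, with 53.1, 52.1 and 26.9 array medians in resistant arrays and 262, 126 and 125 in parental arrays (log2 difference -1.93, limma adjusted p = 0.0764). SLC27A2, which activates very long chains, had a difference of 0.87 (limma adjusted p = 0.0991). Of 20 genes of fatty acid oxidation 3 had an unadjusted p under 0.05, led by the carnitine palmitoyltransferase CPT2, with 5.57, 6.72 and 7.91 array medians in resistant arrays and 14.4, 14.4 and 13.3 in parental arrays (log2 difference -1.07, limma adjusted p = 0.0683). Of 13 regulators 2 had an unadjusted p under 0.05: PPARD, a nuclear receptor for fatty acids, with a difference of -0.61, and NR1H3, the oxysterol receptor LXR alpha, with 0.65. Of 7 ceramide synthases and enzymes of sphingolipid entry 1 did, CERS1, with a difference of 2.71 (limma adjusted p = 0.115) by a probe set of a class that can match other transcripts. Of 14 acyltransferases 4 did, and the list's median was 0.23. The medians were -0.03 for acyl-CoA synthetases, -0.07 for oxidation, 0.01 for regulators and 0.11 for ceramide synthases, against 0.02 for all genes.

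**Figure D4:**
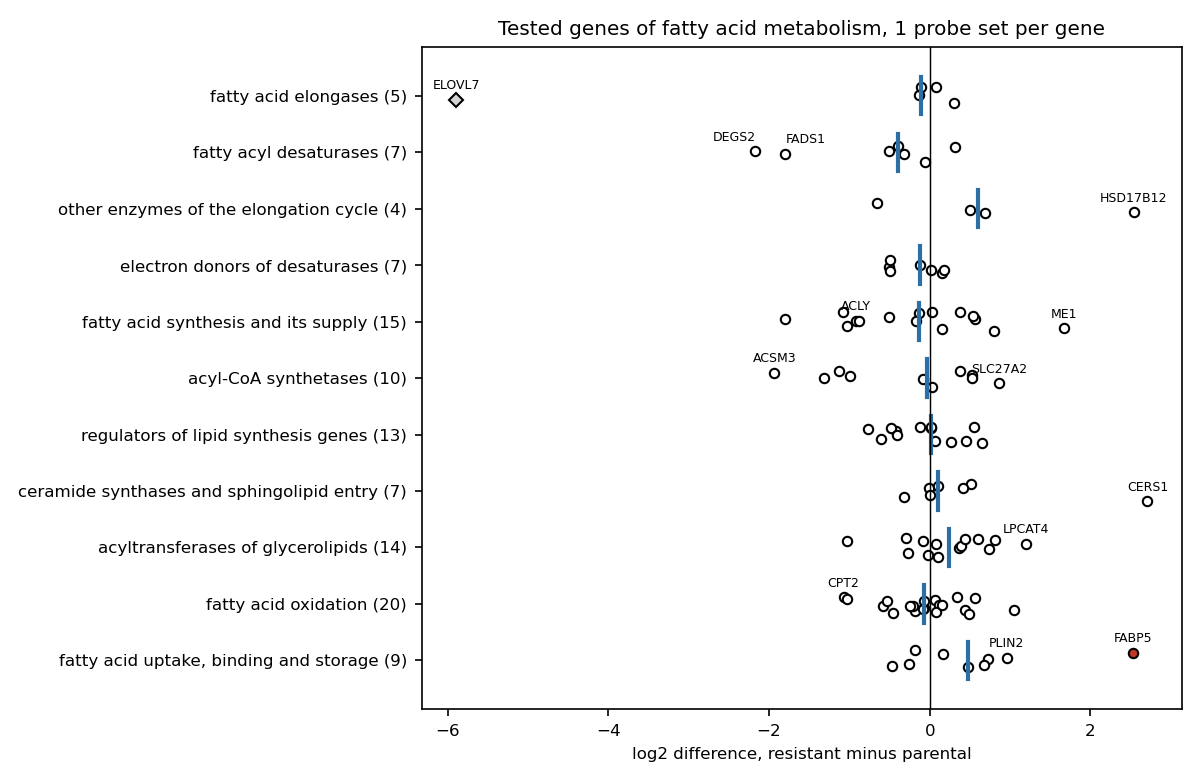
Log2 difference of resistant minus parental cells for each tested gene of the lists, 1 probe set per gene, with the number of tested genes in brackets, blue marks at the median of each list, the called gene FABP5 in red and ELOVL7 as a grey diamond. List medians lie between -0.39 and 0.60.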

How the data were processed

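Expression was measured on 6 Affymetrix HG U133 Plus 2.0 arrays, 3 of MTX-resistant and 3 of parental K562 cells. The authors deposited linear MAS5 intensities, with 1 signal for each probe set and no version of the software given. The division by the 50th percentile and by the parental median described in the methods was not present in the deposited intensities, since the array medians ran from 10.2 to 14.3. Each intensity was therefore divided by its array median. Values under 0.01 array median were set to 0.01 before log2, and no pseudocount was added. The filter on control strength was replaced by a mean of at least 1 array median, which left 26692 probe sets after 62 controls were removed. The test named for the methods also used this filter, and it was not run in the paper's software. Its counts are therefore not the paper's calls, and a lack of calls by it is no finding of the paper.

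Groups were compared by limma (version 3.58.1, R 4.3.3), two-sided, resistant minus parental. Folds come from mean log2 values, and errors of levels are SDs over 3 arrays. Where a gene needed 1 value, its tested probe set of highest mean log2 level was used, of those that name 1 gene where there were any. Of the probe sets, 41097 named 1 gene, 1801 several and 11777 none. Gene names and order were taken from RefSeq (GRCh38.p14), and no build is given for the values. Named list genes are the called ones, or otherwise some of the 3 with the smallest adjusted p, with none named for acyltransferases and electron donors. ERCC8, DEPDC1B, NDUFAF2, PLK2, MYRF, TMEM258, FEN1 and FADS3 are neighbours. ACACA, ELOVL3, PLIN2 and the marker genes were picked after their values were seen. Members, lists and alternatives were chosen with earlier results of these data known. The fit was tested on simulated data. Depth has no meaning for arrays, and their number limits the precision. Protein sequences were not used here. Alternatives comprised quantile normalization, the deposited values unscaled, the 75th percentile, other level filters and pseudocounts, an intensity trend with a robust prior, the methods' t-test, a replicate block, the mean over the probe sets of a gene, leaving out each array, and, added after seeing the data, leaving out parental 1 and resistant 3 together.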

Additional observations from a re-analysis of the deposited data

How the results depend on the processing

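Every alternative kept the negative sign of the FADS1 difference, from -2.18 to -1.37 over its probe sets, and that of ELOVL7, from -6.76 to -3.87. Of 19 other member probe sets, the 2 called became 3 with a pseudocount of 1 array median and with the trend and robust prior, 1 with the values as deposited and 0 with no level filter, with the methods' t-test, with the replicate block and without parental 1 and resistant 3, and 0 to 1 when 1 array was left out. By 1 probe set per gene, 1 member, FADS1, was called with a pseudocount of 1 array median, with the trend and robust prior, and by the mean over its probe sets (adjusted p = 0.0389 in limma), and 0 when 1 array was left out. Called list genes outside the members numbered 2 with the values as deposited, 0 with no level filter, 3 with a filter at 2 array medians, 2 and 5 with pseudocounts of 0.25 and 1, 6 with the trend and robust prior, 0 with the methods' t-test, 4 without parental 1 and resistant 3, and 0 to 2 when 1 array was left out, against 1. Over all probe sets, 622 calls became 174 with no level filter, 1191 with a pseudocount of 1 array median, 1133 with the trend and robust prior, 126 with the methods' t-test, 269 with the replicate block, 1014 without parental 1 and resistant 3, and 204 to 1080 when 1 array was left out. The share of higher calls was 51.3%, but 39.5% with the values as deposited and 65.1% with the methods' t-test. When 1 array was left out, it ran from 40% without resistant 1 to 67.2% without parental 2. The cause was not tested.

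Signs turned for probe sets with small differences. FASN was at -0.0055 under quantile normalization and -0.17 as deposited. As deposited, ELOVL6 was at -0.12 and -0.16 by 204256_at and 210868_s_at and ELOVL5 at -0.045 by 214153_at. Without parental 1 and resistant 3 these probe sets were at -0.33 and -0.19 for ELOVL6 and -0.21 for ELOVL5, and ELOVL1 was at 0.18 and 0.33. Leaving out 1 array gave -0.23 to 0.37 for FASN, -0.18 to 0.35 and -0.14 to 0.22 for ELOVL6, -0.10 to 0.29 for ELOVL5, -0.31 to 0.13 for ELOVL1 by 57163_at, and -0.57 to 0.49 for ELOVL2. Same-numbered arrays shared almost no deviation (correlations -0.00671, -0.0253 and -0.00641), and no resistant array correlated best with its own number. The numbers were therefore not used as pairs in the main fit. Whether same-numbered arrays were processed together cannot be told from such correlations. In the fit with the replicate block the FADS1 calls had adjusted p of 0.0664 and 0.064 (limma). Signal near or below the array median sets a limit on ELOVL2, ELOVL4, FADS2 and resistant ELOVL7.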
